A study of Mus musculus with 28 samples.

Results

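The lipid droplet coat and lipolysis genes followed here were 10 genes of the liver, chosen by symbol and found by Ensembl identifier among the 21935 genes of the count table. They were the CIDE family (*Cidea*, *Cideb*, and *Cidec*), the perilipins *Plin2*, *Plin3*, *Plin4*, and *Plin5*, and the lipolysis unit of *Pnpla2*, *Abhd5*, and *G0s2*. All 10 passed the filter on low counts, as did 12580 genes in all. Expression was measured by sequencing of messenger RNA in terminal liver samples from 28 mice. Every mouse was a male B6.V-Lepob/JRj animal, homozygous for a mutation of leptin, and had eaten the AMLN diet (40% fat, 20% fructose, and 2% cholesterol) for 14 weeks before treatment and during it. Treatment was oral and once daily for 2 weeks, with vehicle alone in 10 mice, OCA at 30 mg/kg in 9 mice, and INT-787 at 30 mg/kg in 9 mice. Obeticholic acid (OCA) is a semisynthetic bile acid that activates the farnesoid X receptor (FXR), and INT-787 is an FXR agonist built on the same bile acid with an added hydroxyl group. All groups lacked leptin and ate the same diet, and no lean or chow-fed mice were among the samples, so every difference below is one between treatments within this model of steatohepatitis. Each sample was a separate mouse.

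A lipid droplet is a core of triglyceride and cholesteryl ester within a single layer of phospholipid, and the proteins on that layer decide whether the lipid is kept or released. CIDE proteins gather where droplets touch and let lipid pass from the smaller droplet to the larger, perilipins coat the surface and control the access of lipases, and adipose triglyceride lipase (ATGL, the product of *Pnpla2*) cuts the first fatty acid from triglyceride, with ABHD5 as its activator and G0S2 as its inhibitor. In fatty liver, CIDEA, CIDEC (also called FSP27), and PLIN4, proteins better known from adipocytes, appear in hepatocytes, and PLIN2 is the main droplet coat there.

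The stretches before the start of 5 of these genes are shown, those of *Cidec* and *Plin4*, which fell with both drugs, and those that hold a nuclear receptor half-site, of *Plin2*, which fell with OCA, and of *Plin5* and *Abhd5*, which passed no test. They come from RefSeq promoter windows on GRCm38.p6, which had entries for 9 of the 10 genes (11 windows, none for *Cidea*), and bases inside the GENCODE gene were trimmed. They run 5′ to 3′ on the strand of the gene, and capitals mark the nuclear receptor half-site AGGTCA or its reverse complement TGACCT. *Cidec* is at chr6:113435761-113436010 (minus strand), *Plin2* at chr4:86670061-86670309 (minus), *Plin4* at chr17:56109804-56110032 (minus), *Plin5* at chr17:56117597-56117798 (minus), and *Abhd5* at chr9:122351366-122351607 (plus).
Cidec: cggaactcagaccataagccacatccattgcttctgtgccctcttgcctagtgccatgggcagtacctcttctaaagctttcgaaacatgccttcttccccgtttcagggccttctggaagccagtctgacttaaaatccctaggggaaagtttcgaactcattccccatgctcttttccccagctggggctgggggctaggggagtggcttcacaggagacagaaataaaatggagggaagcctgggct
Plin2: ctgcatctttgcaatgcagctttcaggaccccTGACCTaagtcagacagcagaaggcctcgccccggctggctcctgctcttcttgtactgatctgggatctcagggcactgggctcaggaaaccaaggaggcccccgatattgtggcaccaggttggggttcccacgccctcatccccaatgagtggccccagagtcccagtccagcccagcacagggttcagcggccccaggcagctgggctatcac
Plin4: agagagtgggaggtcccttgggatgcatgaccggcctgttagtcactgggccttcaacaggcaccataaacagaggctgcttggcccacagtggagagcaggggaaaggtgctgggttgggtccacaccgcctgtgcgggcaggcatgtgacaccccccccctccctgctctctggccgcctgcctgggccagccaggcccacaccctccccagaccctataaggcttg
Plin5: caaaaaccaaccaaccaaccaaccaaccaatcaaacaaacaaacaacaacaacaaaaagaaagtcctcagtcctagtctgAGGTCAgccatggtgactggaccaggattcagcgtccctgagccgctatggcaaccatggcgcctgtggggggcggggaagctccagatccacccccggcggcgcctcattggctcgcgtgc
Abhd5: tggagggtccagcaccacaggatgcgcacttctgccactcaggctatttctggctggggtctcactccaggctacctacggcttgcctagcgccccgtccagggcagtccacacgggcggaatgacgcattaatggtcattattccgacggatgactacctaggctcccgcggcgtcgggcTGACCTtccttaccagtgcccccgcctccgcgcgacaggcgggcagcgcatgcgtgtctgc
The half-site began 217 bases before *Plin2*, 122 bases before *Plin5*, and 61 bases before *Abhd5*, and these letters were not in the *Cidec* and *Plin4* stretches. They were also not in the stretches of *Cideb*, *Pnpla2*, and *G0s2*, which are not shown. These genes did not pass in the main test described below, although *Cideb* and *G0s2* passed under some alternatives with INT-787. *Plin3*, which rose with INT-787, had no stretch left after trimming. Whether the half-site goes with a change in expression was not tested. Of the 11 windows of 300 bases, 4 held the half-site on either strand, against 16.3% of all 32851 windows. These windows belonged only to *Abhd5*, *Plin2*, and *Plin5*, so this is a count of windows and not of genes. The direct repeat AGGTCANAGGTCA and the inverted repeat AGGTCANTGACCT, which each contain the half-site, were in 0 of the 11 windows, and in 0.0396% and 0.00913% of all windows. These matches describe letters only.

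Total counts ranged from 1009593 to 18342272 in the vehicle group, from 10990531 to 22421506 with OCA, and from 12513715 to 22128216 with INT-787, and vehicle replicate 6 was the shallowest library. Values per mouse are CPM, that is counts relative to the library total, scaled by the trimmed mean of M values (TMM). Groups were compared by log2 fold change with its standard error (SE) and 95% confidence interval (CI) from edgeR's quasi-likelihood fit, and a gene passed at a Benjamini-Hochberg adjusted p of at most 0.05 over all 12580 genes tested. In vehicle replicate 5, a gene that overlaps *Cideb* on the opposite strand stood far above its level in the other mice, as given below. Leaving out both vehicle replicates changed no call among the 10 genes.

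OCA lowered 4 of the 10 genes, *Cidea*, *Cidec*, *Plin2*, and *Plin4*, and raised 0 (edgeR, DESeq2, and limma-voom, and 0 also at an unadjusted p under 0.05). Over all genes, 6.6% passed in this comparison, 2.45% lower and 4.15% higher. INT-787 lowered 3, *Cidea*, *Cidec*, and *Plin4*, and raised 1, *Plin3*, where 19.6% of all genes passed, 9.48% lower and 10.2% higher. With INT-787, 7 of the 10 had an unadjusted p under 0.05, DESeq2 passed 5 (4 lower and 1 higher), and limma-voom passed 6 (4 lower and 2 higher). Of all 12580 genes, 4065 had an unadjusted p under 0.05 in edgeR's test with INT-787, DESeq2 passed 2708, and limma-voom passed 2493. The median log2 fold change of the 10 genes was −0.21 with OCA and −0.16 with INT-787, against 0.02 and 0.00 over all genes. Both drugs were compared with the same vehicle mice, so their results are not independent of each other. In these liver samples, fewer cells of a type and less RNA per cell cannot be told apart. With upper-quartile scaling in place of TMM, the share of passing genes that were higher moved from 51.7% to 37.5% for INT-787 and from 62.9% to 52.3% for OCA, and among the 10 genes *Plin3* no longer passed with INT-787 while *Plin2* and *G0s2* did, which gave 5 lower and 0 higher.

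**Figure D1:**
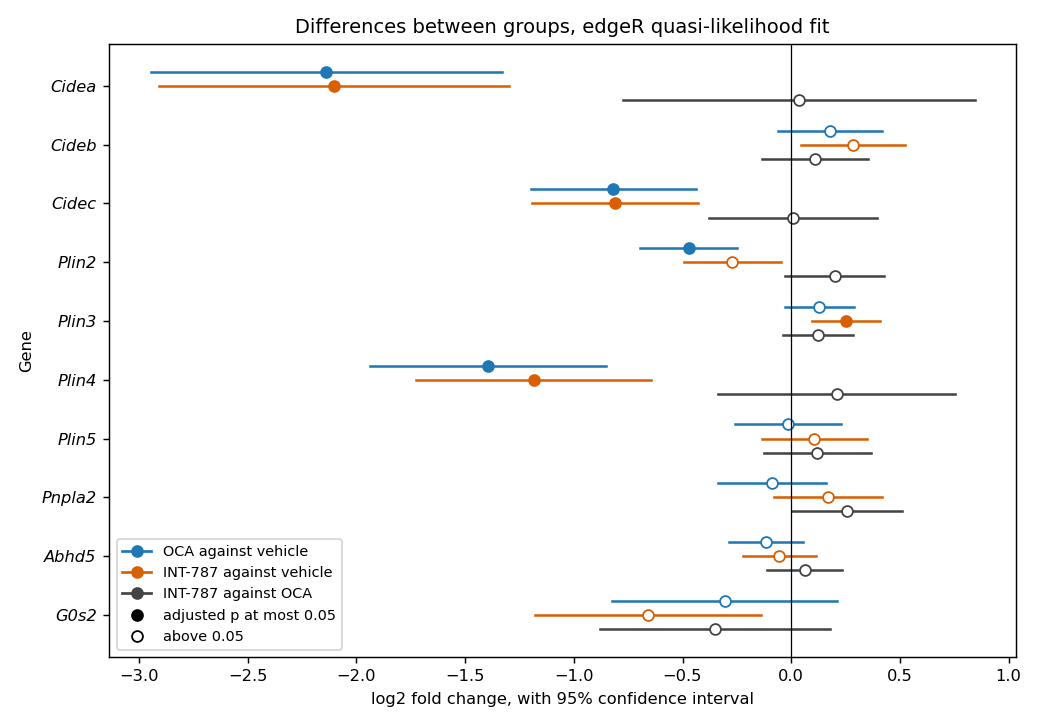
Log2 fold change (horizontal axis) of each gene (vertical axis) for OCA against vehicle, INT-787 against vehicle, and INT-787 against OCA, where lines are 95% CIs and filled points have an adjusted p of at most 0.05. *Cidea*, *Cidec*, and *Plin4* lie to the left of 0 for both drugs against vehicle, and the direct comparison of the drugs has 0 filled points.

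The CIDE family held the deepest fall. *Cidea* promotes the growth of large droplets and is abundant in brown fat and in fatty liver. In the vehicle group its lowest, median, and highest values were 35.0, 57.4, and 88.1 CPM. With OCA they were 1.799, 13.3, and 27.3 CPM, so that all 9 mice lay below every vehicle mouse. Over all genes, 0.89% had ranges apart in this comparison, 0.286% in the lower direction. With INT-787 they were 2.83, 9.65, and 42.9 CPM, and 8 of 9 mice lay below every vehicle mouse, the exception being INT-787 replicate 4 at 42.9 CPM. For INT-787 the ranges of 0 of the 10 genes were apart from those of vehicle, against 2.66% of all genes (0.866% in the lower direction). The fall was 4.40-fold with OCA (log2 fold change −2.14, SE 0.40, adjusted p = 0.00045) and 4.30-fold with INT-787 (−2.10, SE 0.39, adjusted p = 0.00021). The spread among mice was wide under treatment, with coefficients of variation of 63.2% for OCA and 90.3% for INT-787 against 35.3% for vehicle. *Cidea* lies on chromosome 18.

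*Cidec* (chromosome 6, 113424634-113435760) encodes the family member that drives lipid transfer between droplets in white fat and in steatotic liver. It ran from 123 CPM through a median of 203 to 292 CPM in vehicle mice, from 60.03 through 112 to 195 CPM with OCA, and from 76.0 through 102 to 186 CPM with INT-787. The ranges overlapped, although 7 of 9 OCA mice and 6 of 9 INT-787 mice lay below the whole vehicle range. It fell 1.76-fold with OCA (log2 fold change −0.82, SE 0.19, adjusted p = 0.0047) and 1.75-fold with INT-787 (−0.81, SE 0.19, adjusted p = 0.0021).

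*Cideb* (chromosome 14, 55754050-55758458) is the member of healthy hepatocytes, where it serves the loading of lipid into very low density lipoprotein, and its values did not follow those of the other two. Its lowest, median, and highest values were 222, 283, and 520 CPM with vehicle, 287, 345, and 419 CPM with OCA, and 303, 357, and 437 CPM with INT-787. Both drug medians were above the vehicle median, but the ranges overlapped and neither difference passed in edgeR's main test (0.18, adjusted p = 0.46 for OCA, and 0.29, adjusted p = 0.084 for INT-787). The INT-787 difference did pass with limma-voom and with the replicate number as a block. Vehicle replicate 10 alone stood at 520 CPM. Without it the INT-787 difference also passed (0.41, adjusted p = 0.0020). The exons of *Cideb* overlap those of *Nop9* on the opposite strand by 1136 bases. *Nop9* stood at 263 CPM in vehicle replicate 5 and at 12.9 to 21.4 CPM in the other vehicle mice, and *Cideb* in vehicle replicate 5 was at 348 CPM. Whether reads of these overlapping genes were mixed in that library was not tested. Without it the INT-787 difference for *Cideb* was 0.31 (adjusted p = 0.071).

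**Figure D2:**
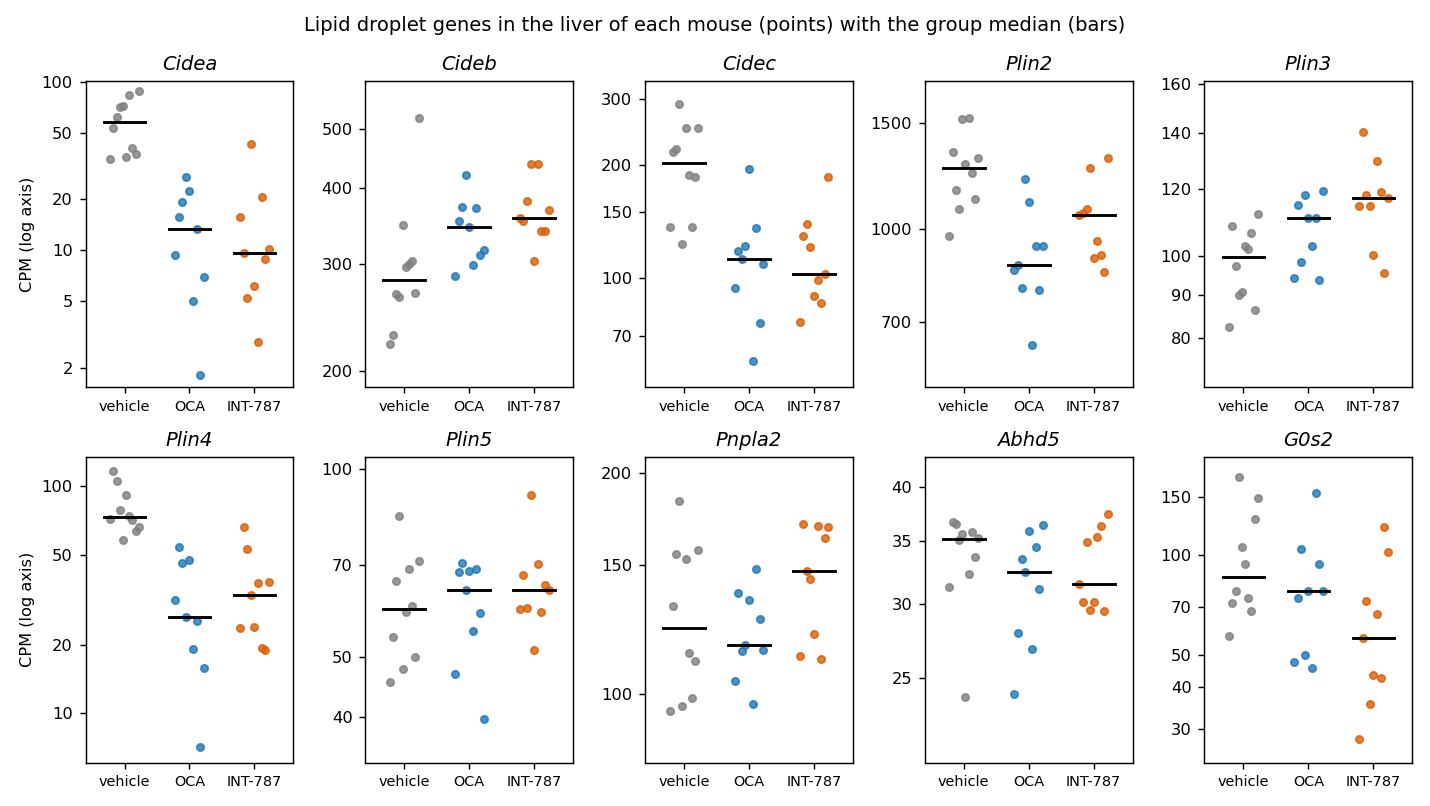
CPM of each of the 10 genes (vertical axes, logarithmic, each gene on its own scale) in every mouse of the vehicle, OCA, and INT-787 groups, where points are mice and bars are group medians. The OCA points of *Cidea* and *Plin4* all sit below the vehicle points, while *Plin5*, *Pnpla2*, and *Abhd5* overlap in all 3 groups.

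The perilipins split by member. *Plin4*, which coats small new droplets and is best known from adipocytes, fell about as clearly as *Cidea*. The vehicle mice held 57.8, 73.1, and 117 CPM (lowest, median, and highest), the OCA mice 7.14, 26.6, and 54.1 CPM, and the INT-787 mice 19.1, 33.3, and 66.5 CPM. All 9 OCA mice and 8 of 9 INT-787 mice lay below every vehicle mouse, with INT-787 replicate 2 inside the vehicle range. The fall was 2.63-fold with OCA (log2 fold change −1.39, SE 0.27, adjusted p = 0.00064) and 2.27-fold with INT-787 (−1.19, SE 0.26, adjusted p = 0.0015). *Plin4* (chromosome 17, 56100591-56109803) shares 17 exonic bases with *Hdgfl2* on the opposite strand, whose log2 fold changes were 0.31 with OCA and 0.53 with INT-787, opposite in sign to those of *Plin4*.

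*Plin2* (chromosome 4, 86648386-86670060) encodes the coat protein found on most droplets of the hepatocyte and had the highest level of the 10 genes per exon length. It ran from 973 CPM through a median of 1260 to 1529 CPM with vehicle, from 642 through 870 to 1209 CPM with OCA, and from 846 through 1052 to 1308 CPM with INT-787. The INT-787 mice lay between the others, with 4 of 9 below the vehicle range against 7 of 9 with OCA. *Plin2* fell with OCA by 27.9% (log2 fold change −0.47, SE 0.11, adjusted p = 0.0052). With INT-787 the difference was −0.27 (SE 0.11, adjusted p = 0.078) and did not pass, although it did with upper-quartile scaling (−0.33, adjusted p = 0.023), with DESeq2 (−0.28, adjusted p = 0.049), and without any one of vehicle replicate 1, INT-787 replicate 4, and INT-787 replicate 9.

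*Plin3* (chromosome 17, 56277476-56292873), a perilipin that moves between the cytosol and nascent droplets, was the 1 member that rose in edgeR's main test. Its vehicle values were 82.4, 99.8, and 112 CPM, its OCA values 93.9, 111, and 119 CPM, and its INT-787 values 95.6, 117, and 140 CPM. With INT-787, 7 of 9 mice lay above every vehicle mouse. The rise was 19.1% with INT-787 (log2 fold change 0.25, SE 0.08, adjusted p = 0.019), and was lost with upper-quartile scaling (0.19, adjusted p = 0.060). With OCA the difference was 0.13 (adjusted p = 0.40). *Plin3* was also the steadiest perilipin, with coefficients of variation of 9.32% to 11.5% in the 3 groups.

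*Plin5* (chromosome 17, 56111601-56117596), which ties droplets to mitochondria and binds ATGL and ABHD5, had overlapping ranges in all groups. They were 45.5 to 83.8 CPM with vehicle (median 59.5), 39.7 to 70.7 CPM with OCA (median 63.9), and 51.3 to 90.9 CPM with INT-787 (median 64.0). The differences were −0.01 for OCA (95% CI −0.26 to 0.23) and 0.11 for INT-787 (95% CI −0.14 to 0.35). *Plin5* lies beside *Plin4*, so neighbours on chromosome 17 differed in whether they passed. That the change in one exceeded that in the other was not tested.

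In the lipolysis unit, 0 of 3 genes passed with either drug by edgeR and DESeq2, and 1, *G0s2* with INT-787, passed by limma-voom and had an unadjusted p under 0.05 in edgeR. *Pnpla2* (chromosome 7, 141455198-141460743) ran from 94.8 to 183 CPM with vehicle (median 123), from 96.8 to 148 CPM with OCA (median 116), and from 111 to 170 CPM with INT-787 (median 147). The drugs stood on opposite sides of vehicle, at −0.09 for OCA (95% CI −0.34 to 0.16) and 0.17 for INT-787 (95% CI −0.08 to 0.42). *Abhd5* (chromosome 9, 122351608-122381524) was nearly level, with medians of 35.2, 32.5, and 31.5 CPM in the vehicle, OCA, and INT-787 groups and differences of −0.12 (95% CI −0.28 to 0.05) and −0.05 (95% CI −0.22 to 0.11). Its exons share 950 bases with an antisense gene that has no row in the table.

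*G0s2* (chromosome 1, 193272161-193273217), the inhibitor, was the most variable of this unit. Vehicle mice ran from 56.9 through 86.0 to 172 CPM, OCA mice from 45.7 through 77.7 to 154 CPM, and INT-787 mice from 27.8 through 56.3 to 121 CPM. With INT-787, 5 of 9 mice lay below every vehicle mouse, and the remaining mice overlapped. The log2 fold change was −0.66 (SE 0.26, adjusted p = 0.067) with INT-787 and −0.31 (adjusted p = 0.59) with OCA. The INT-787 difference passed with upper-quartile scaling (−0.72, adjusted p = 0.042), with limma-voom (−0.72, adjusted p = 0.041), and without any one of vehicle replicate 1, INT-787 replicate 8, and INT-787 replicate 9 (adjusted p = 0.045, 0.018, and 0.037), so that for this gene single mice decided the call.

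To compare genes with one another, counts were divided by exon length (RPKM, the CPM per kilobase of exon). In vehicle mice *Plin2* stood highest at 357 ± 51.6 RPKM (SD, n = 10), followed by *Cideb* (203 ± 57.2), *G0s2* (115 ± 44.2), *Cidec* (108 ± 30.6), *Cidea* (51.9 ± 18.3), *Pnpla2* (42.9 ± 10.3), *Plin5* (29.05 ± 5.78), *Plin3* (25.9 ± 2.67), *Plin4* (13.8 ± 3.34), and *Abhd5* (5.65 ± 0.647). Some neighbours in this order were not separated by mouse. *G0s2* exceeded *Cidec* in 5 of 10 vehicle mice and *Cidea* exceeded *Pnpla2* in 7 of 10, whereas *Plin3* and *Plin4*, and *Plin4* and *Abhd5*, had ranges that did not overlap. *Cidea* moved from the fifth place in vehicle mice to the eighth with each drug, at 12.1 ± 7.63 RPKM with OCA and 12.2 ± 11.01 RPKM with INT-787 (SD, n = 9). *Plin4* stood at 5.25 ± 2.74 RPKM with OCA and 6.05 ± 2.78 RPKM with INT-787, and *Abhd5* at 5.28 ± 0.722 and 5.50 ± 0.537 RPKM. The length chosen moves these levels. Per length of the longest transcript, the mean RPKM of *Plin2* in vehicle mice was 665 and that of *Abhd5* 10.7, and *Abhd5* stood at 9.96 RPKM with OCA and 10.4 RPKM with INT-787, against 5.27 and 6.08 RPKM for *Plin4*, whose place above *Abhd5* with INT-787 was thereby lost.

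**Figure D3:**
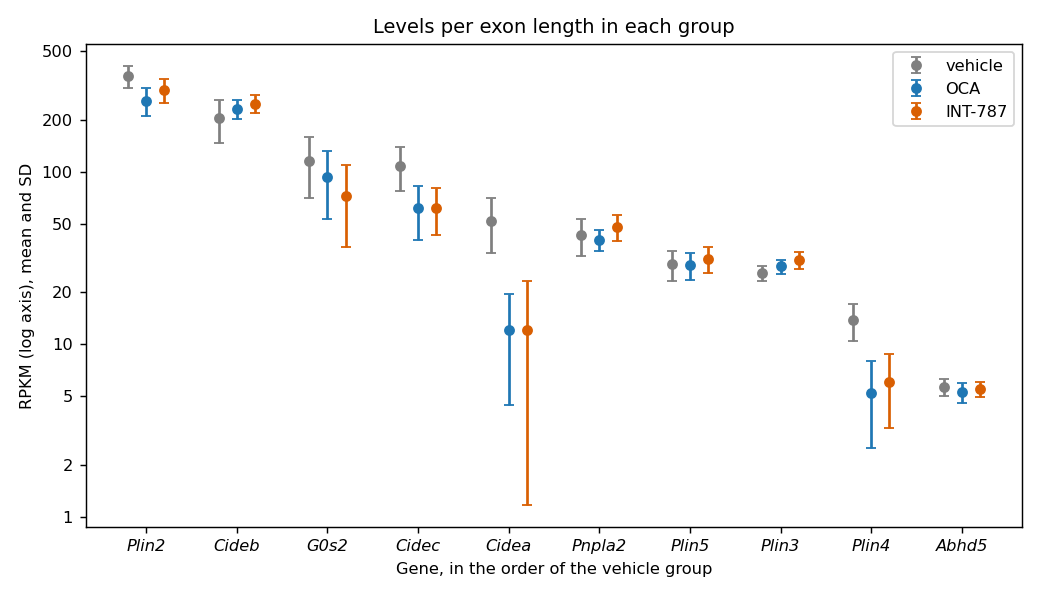
Mean RPKM (vertical axis, logarithmic) with SD for each gene and group (10 vehicle, 9 OCA, and 9 INT-787 mice), in the order of the vehicle means. *Plin2* and *Cideb* lead in every group, and *Cidea* drops from 51.9 RPKM in vehicle mice to 12.1 and 12.2 RPKM with OCA and INT-787.

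Within the CIDE family this gave another makeup. *Cidea* made up 14.1 ± 3.39% of the family's summed RPKM in vehicle mice, 3.74 ± 1.94% with OCA, and 3.68 ± 2.82% with INT-787. *Cideb* made up 55.8 ± 6.80%, 76.4 ± 5.56%, and 77.3 ± 4.30%, and *Cidec* 30.0 ± 6.90%, 19.9 ± 4.43%, and 19.1 ± 4.50%. The share of *Cideb* was thus higher in treated mice while its own level had not passed the test. Among the perilipins, *Plin2* kept 83.7 ± 2.31%, 80.3 ± 2.81%, and 81.2 ± 1.91% of the sum of *Plin2* to *Plin5*, and *Plin4* held 3.29 ± 0.833% in vehicle mice against 1.64 ± 0.831% with OCA and 1.64 ± 0.676% with INT-787. In the lipolysis unit, RPKM of the inhibitor *G0s2* over RPKM of *Pnpla2* was 2.69 ± 0.829 in vehicle mice, 2.26 ± 0.741 in OCA mice, and 1.47 ± 0.573 in INT-787 mice, and the activator *Abhd5* over *Pnpla2* was 0.139 ± 0.0361, 0.132 ± 0.0180, and 0.118 ± 0.0242. Per length of the longest transcript, *Plin2* held 90.2%, 87.9%, and 88.5% of the perilipin sum in vehicle, OCA, and INT-787 mice. On that scale *Plin4* held 1.91%, 0.970%, and 0.967%, and *Abhd5* over *Pnpla2* was 0.228, 0.217, and 0.193. These shares and ratios describe the groups and were not tested.

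INT-787 and OCA, which were given at the same dose for the same time, were compared directly for the 10 genes. In that comparison 0 of the 10 passed with edgeR, where 5.38% of all genes did (3.19% lower and 2.19% higher), and 1, *Pnpla2*, had an unadjusted p under 0.05. DESeq2 and limma-voom also passed 0. *Pnpla2* was higher with INT-787 by 0.26 on the log2 scale (95% CI 0.01 to 0.51, adjusted p = 0.25), and 4 of 9 INT-787 mice lay above every OCA mouse. *Plin2* stood 0.20 higher with INT-787 (95% CI −0.03 to 0.43, adjusted p = 0.34), *Plin3* 0.12 higher (95% CI −0.04 to 0.28), *Cideb* 0.11 higher (95% CI −0.14 to 0.35), and *Plin4* 0.21 higher (95% CI −0.34 to 0.75). The call of *Plin2* with OCA and that of *Plin3* with INT-787 were therefore not shown to differ between the drugs.

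The intervals for the remaining genes were of unequal width. For *Cidec* the difference was 0.01 (95% CI −0.38 to 0.40) and for *G0s2* −0.35 (95% CI −0.88 to 0.18). For *Cidea* it was 0.04 (95% CI −0.77 to 0.84), the widest interval of the 10, and without INT-787 replicate 4 the sign turned (−0.41, adjusted p = 0.62). *Plin5* (0.12, 95% CI −0.13 to 0.37) and *Abhd5* (0.06, 95% CI −0.11 to 0.23) had narrower intervals. These values do not show that the added hydroxyl group leaves the expression of the genes the same, only that no difference passed at this number of mice.

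Mice of a group also differed from one another, and the 10 genes were compared for shared deviations from their group means (log2 CPM, 28 mice, 45 pairs, two-sided permutation test of 100000 draws within groups). A positive relation passed for 12 pairs (26.7%, each with r of at least 0.47) and a negative one for 0. Of all 43753335 pairs of the 9355 genes with a mean of at least 5 CPM, 7.75% had an r that high, and the median r was 0.00, against 0.29 over the 45 pairs, which is a description with no test of the difference. *Cidec* and *Pnpla2* were the closest pair, with Pearson's r = 0.78 (permutation p = 1e-05, adjusted p = 0.00045) and Spearman's rho = 0.78 (permutation p = 1e-05, adjusted p = 0.00045), where 1e-05 is the smallest p these permutations can give. Without the 2 mice farthest from the median of *Cidec*, r was 0.80. Within the groups it was 0.96 in vehicle, 0.68 in OCA, and 0.70 in INT-787 mice. So the mice with more *Cidec* were also those with more ATGL mRNA, as vehicle replicate 4 (292 CPM of *Cidec* and 183 of *Pnpla2*) and vehicle replicate 5 (123 and 96.2 CPM) illustrate.

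*Pnpla2* was correlated with 2 more droplet genes that way. With its inhibitor *G0s2* r was 0.65 (permutation p = 0.00025, adjusted p = 0.0056) and rho 0.61 (permutation p = 0.00078, adjusted p = 0.012), with r of 0.58, 0.76, and 0.74 within vehicle, OCA, and INT-787 mice and 0.57 without the 2 farthest mice. With *Plin5* r was 0.62 (permutation p = 0.00075, adjusted p = 0.011) and rho 0.61 (permutation p = 0.0014, adjusted p = 0.015), with r of 0.77, 0.56, and 0.45 within the groups and 0.72 without the 2 farthest mice. These 3 pairs also passed with upper-quartile scaling, and the other 9 did not. Over the mice of a single group, 1 pair passed in vehicle mice, 0 in OCA mice, and 0 in INT-787 mice. For *Cidea* and *Plin4*, the members with the deepest falls, r was 0.86 in OCA mice, −0.12 in vehicle mice, and −0.28 in INT-787 mice, and over all mice r was 0.36 (adjusted p = 0.24). The values of a pair share a library and its depth.

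**Figure D4:**
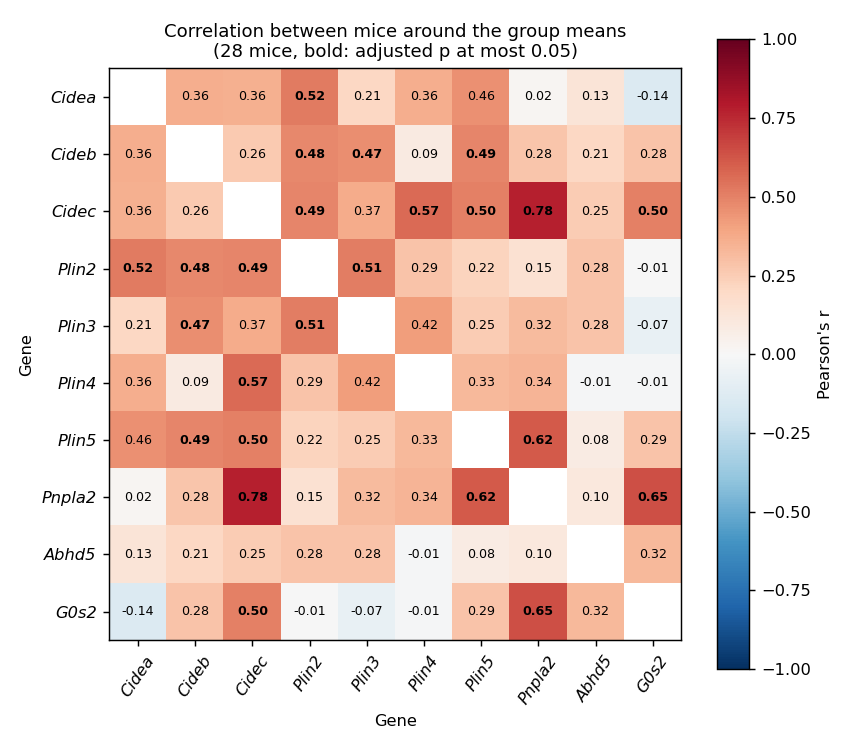
Pearson's r between the log2 CPM of each pair of genes (both axes) over 28 mice after the group means were removed, from blue (−1) to red (1), where bold values have an adjusted p of at most 0.05 over 45 pairs. *Cidec* with *Pnpla2* is the darkest cell (0.78).

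Over the 9355 genes with a mean of at least 5 CPM, the genes whose deviations were most like those of a member were taken as a description (Pearson's r over 28 mice). For *Cidea* these were *Cyp4a32* (r = 0.80), *Mogat1* (r = 0.78), which encodes an acyltransferase of triglyceride synthesis, and *Mgll* (r = 0.78), the monoacylglycerol lipase. *Cidec* was closest to *Fam102a* (r = 0.81), *Pex11a* (r = 0.80), a peroxisome division factor, and *Sdcbp2* (r = 0.79). *Plin4* was closest to *Arsa* (r = 0.83), *Pcsk6* (r = 0.82), and *Mtor* (r = 0.81), and *Plin2* to *Vnn1* (r = 0.74), *Lrrc28* (r = 0.67), and *Sprr1a* (r = 0.66). *Pnpla2* was closest to *Nr1i2* (r = 0.86), the pregnane X receptor, *Aifm2* (r = 0.86), and *Selenbp1* (r = 0.85), and *Plin5* to *Mul1* (r = 0.83), *Spr* (r = 0.78), and *Acot8* (r = 0.77). The highest values for *Cideb*, *Plin3*, and *Abhd5* were those of *Cideb* with *Cyp2d10* (r = 0.92), *Plin3* with *Cyb5r3* (r = 0.80), and *Abhd5* with *Ncbp1* (r = 0.74).

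Other genes of the droplet were read from 3 lists. Of the 12 tested genes of droplet biogenesis and coat, 2 fell and 0 rose with OCA in edgeR's test (1 was higher at an unadjusted p under 0.05), and 2 fell and 2 rose with INT-787, where 6.6% and 19.6% of all genes passed. The pair that fell was the same, *Fitm1* (−1.03 with OCA, adjusted p = 0.0010, and −0.75 with INT-787, adjusted p = 0.0085) and *Fitm2* (−0.70, adjusted p = 0.00091, and −0.59, adjusted p = 0.0022), which encode proteins of the endoplasmic reticulum that help droplets form. *Hsd17b13*, a droplet enzyme of hepatocytes, rose with INT-787 from 770 ± 104 CPM (SD, n = 10) to 1122 ± 152 CPM (SD, n = 9) (0.54, adjusted p = 0.00025) and stood 0.40 above OCA (adjusted p = 0.020). *Pcyt1a*, the enzyme that limits phosphatidylcholine synthesis, rose with INT-787 (0.24, adjusted p = 0.040). *Tmem159*, which encodes a partner of seipin, was 0.68 lower with INT-787 than with OCA (adjusted p = 0.019). The list's median was −0.02 with OCA and −0.03 with INT-787, against 0.02 and 0.00 over all genes. *Plin1*, the perilipin of adipocytes, was not tested, having at most 2 counts in any mouse.

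Of the 14 other neutral lipid hydrolases, 5 fell and 1 rose with OCA, and 4 fell and 2 rose with INT-787, with list medians of −0.39 and −0.23. Over all genes 6.6% passed with OCA and 19.6% with INT-787, and the medians were 0.02 and 0.00. The carboxylesterases, which hydrolyze triglyceride and cholesteryl ester in the hepatocyte, moved in both directions. *Ces1f* fell with both drugs (−1.51 with OCA, adjusted p = 3.6e-07, and −1.19 with INT-787, adjusted p = 6.2e-06), as did *Ces1d* (−1.21, adjusted p = 3.2e-06, and −0.66, adjusted p = 0.0027). *Ces1g* rose with both (0.61, adjusted p = 0.00034, and 1.33, adjusted p = 1.1e-10). *Ces1d* and *Ces1g* were the 2 genes of the list that passed between the drugs (5.38% of all genes did), each higher with INT-787 (0.55, adjusted p = 0.039, and 0.72, adjusted p = 0.00013). With INT-787 *Ces3a* fell (−1.25, adjusted p = 0.00070) and *Ces3b* rose (0.93, adjusted p = 0.0060). These genes are close copies of each other and reads may be split among them, so their values are uncertain one by one. *Abhd6*, a monoacylglycerol hydrolase related to *Abhd5* by fold, fell by 0.62 on the log2 scale with OCA (adjusted p = 0.0053) and by 0.57 on that scale with INT-787 (adjusted p = 0.0049).

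Of the 13 transcription regulators of droplet genes, 3 rose and 0 fell with each drug (1, *Pparg*, was lower at an unadjusted p under 0.05 with OCA and 0 with INT-787), and 0 passed between the drugs in edgeR's test (1 at an unadjusted p under 0.05), with list medians of 0.22 (OCA) and 0.25 (INT-787). Over all genes 4.15% were higher with OCA, 10.2% were higher with INT-787, and the medians were 0.02 and 0.00. *Nr0b2*, which encodes the repressor SHP and is a direct FXR target, rose most, from 21.2 ± 8.59 CPM (SD, n = 10) to 47.6 ± 11.4 CPM (SD, n = 9) with OCA (1.17, adjusted p = 0.00010) and 65.0 ± 14.9 CPM (SD, n = 9) with INT-787 (1.62, adjusted p = 2.0e-07). *Creb3l3*, a liver factor of fasting and triglyceride metabolism, rose with both (0.33, adjusted p = 0.025, and 0.51, adjusted p = 0.00014). *Srebf1*, the regulator of lipogenesis, passed with OCA (0.43, adjusted p = 0.017), and *Ppargc1a*, a coactivator of oxidative metabolism, with INT-787 (0.58, adjusted p = 0.0091). *Pparg*, the nuclear receptor known to activate *Cidea*, *Cidec*, and *Plin4*, is named after its values were seen and did not pass, at −0.30 (adjusted p = 0.11) with OCA and −0.15 (adjusted p = 0.38) with INT-787.

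**Figure D5:**
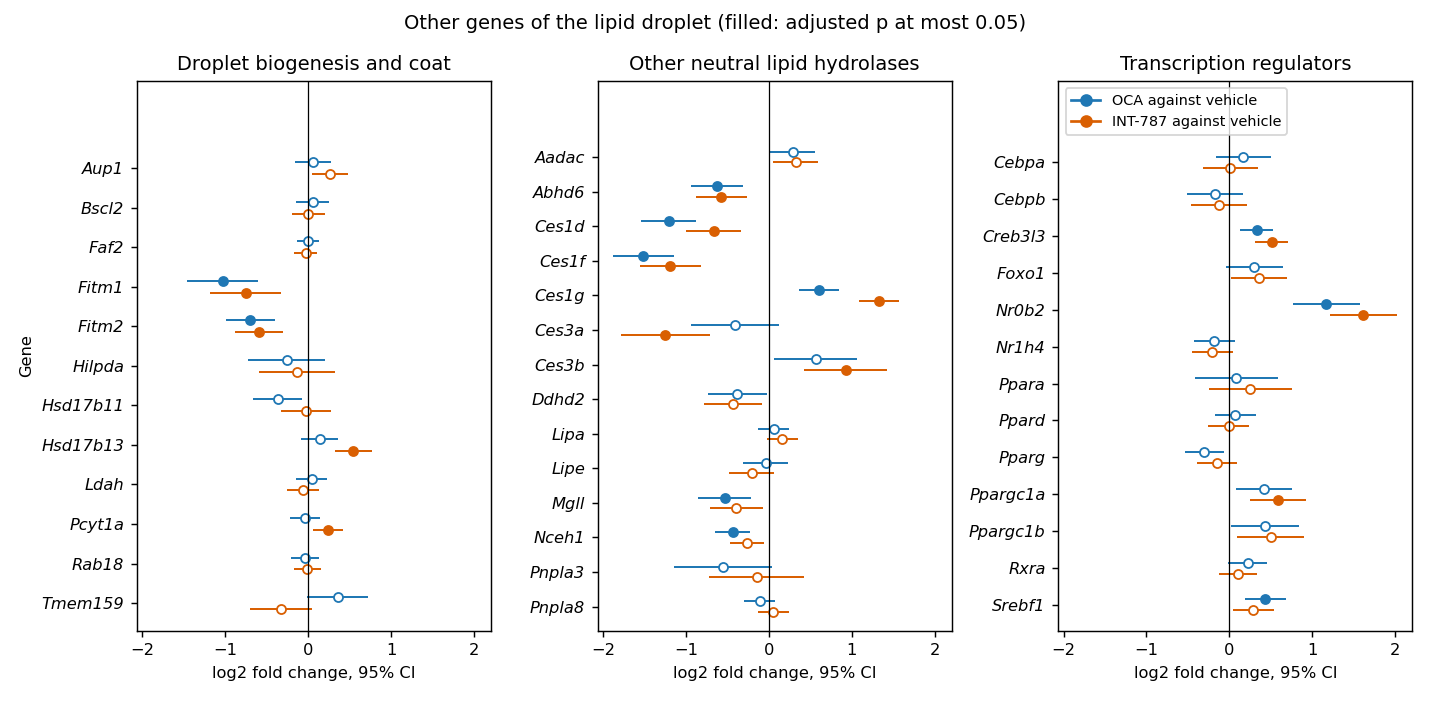
Log2 fold change with 95% CI (horizontal axes) of the tested genes of 3 lists (vertical axes) for OCA against vehicle and INT-787 against vehicle, where filled points have an adjusted p of at most 0.05. *Fitm1* and *Fitm2* lie left of 0 with both drugs, the carboxylesterases lie on both sides, and *Nr0b2* lies farthest right among the regulators.

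Because *Cidea*, *Cidec*, and *Plin4* are also adipocyte genes, markers of other cell types were read in the same mice. Of the 6 white adipocyte markers, *Adipoq*, *Retn*, and *Lep* had 0 counts in all 28 mice, which allows up to 0.00723 CPM over all mice together (3 counts, counting error only), and *Plin1* had at most 2 counts in a mouse. The other two, *Fabp4* and *Cfd*, were tested and were lower with each drug. *Fabp4*, which macrophages and endothelial cells also express, fell by 1.19 on the log2 scale with OCA (adjusted p = 0.0039) and by 1.34 on that scale with INT-787 (adjusted p = 0.00048). Its highest value with INT-787, 51.2 CPM, was in replicate 4, the mouse with the highest *Cidea* of that group. Its highest value with OCA, 33.7 CPM, was in replicate 8, the mouse with the lowest *Cidea* of that group (1.799 CPM). *Cfd* was at 0.477 to 7.36 CPM in vehicle mice and at most 0.998 CPM in treated mice, with 0 counts in 1 OCA mouse and 4 INT-787 mice. Its log2 fold change was −3.33 with OCA (adjusted p = 9.4e-05) and −4.08 with INT-787 (adjusted p = 4.6e-06). The list summed to 28.03 to 72.1 CPM with vehicle, 10.5 to 33.7 CPM with OCA, and 9.32 to 51.7 CPM with INT-787, and *Fabp4* made up most of it. Its part in the results for *Cidea*, *Cidec*, and *Plin4* was not tested. Of the brown adipocyte markers *Ucp1* had 0 counts in every mouse, *Cox8b* had at most 3, and *Cox7a1*, the only one tested, did not pass, although it was lower with each drug at an unadjusted p under 0.05.

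Hepatocyte markers were abundant, with summed levels of 60050 to 133267 CPM in vehicle mice, 103275 to 194846 CPM with OCA, and 93308 to 165264 CPM with INT-787, and 2 of 4 (*Alb* and *Cps1*) were higher with each drug. With INT-787, 4 of 6 macrophage markers and 3 of 5 stellate cell markers were lower, with sums of 244 to 396 CPM against 362 to 528 CPM in vehicle mice for the former and of 325 to 643 CPM against 676 to 1169 CPM for the latter. Over all genes, 9.48% were lower and 10.2% higher with INT-787, and 2.45% were lower and 4.15% higher with OCA. With OCA 0 of either list passed in edgeR's test, and 1 of each was lower at an unadjusted p under 0.05. Skeletal muscle markers were too low to test, and 0 of the 2 tested neutrophil markers passed with either drug, 1 of them lower with INT-787 at an unadjusted p under 0.05. What these shifts contributed to the differences in the droplet genes was not tested.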

How the data were processed

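RNA was sequenced from the livers of 28 mice with stranded libraries. The authors aligned reads to GRCm38 (Ensembl release 89) with STAR 2.5.2a and deposited raw counts of reads per gene, with 1 column per mouse. The program that counted the reads and its use of strand are not given in the sources used here. The table held 21935 genes, of which 21858 matched GENCODE M21 and 4615 had 0 counts in every mouse, and 0 columns lay outside the series.

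The titles of the samples gave the groups. Genes were filtered with filterByExpr, scaled by TMM, and tested with glmQLFit and glmQLFTest (edgeR 4.0.16, R 4.3.3) in a single model of the 3 groups, tested on simulated data. Benjamini-Hochberg adjustment covered 12580 genes, and the threshold was 0.05. Every adjusted p in the text is edgeR's except where DESeq2 or limma-voom is named. CPM used TMM-scaled totals, and log2 CPM a prior count of 1. RPKM used the summed exon length. Correlations were computed in Python 3.11.15 with numpy 2.4.6 and a fixed seed.

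Alternatives were upper-quartile scaling, DESeq2's size factors, no filter, DESeq2 1.42.0, limma-voom (limma 3.58.1), 2 groups per fit, the replicate number as a block, each mouse left out in turn, and vehicle replicates 5 and 6 left out together. The 10 genes were named always. From each other list, the genes that passed in at least 1 comparison were named, up to the 6 with the largest log2 fold change in size, and for each of the 10 genes the 3 most like it by Pearson's r were listed in full or by the highest, except that this result for *G0s2* is not reported here. Members and lists were chosen with earlier results of these data known. The closest libraries of a group (vehicle replicates 3 and 6) differed beyond sampling noise, with a chi-square of 2.97 per gene, so no library was counted as a repeat. A count in a library of 1009593 reads is less precise than in the others, and intervals of 3 counts cover counting error only.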

Additional observations from a re-analysis of the deposited data

Results flagged for a closer look

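A single mouse lay far from the rest of its group for 2 of the 10 genes. *Cideb* stood at 520.4 CPM in vehicle replicate 10, where the gap to the next mouse was 0.472 of the group's range on the log2 CPM scale, and *Abhd5* stood at 23.91 CPM in vehicle replicate 6, with a gap of 0.63 of the range on that scale. The *Abhd5* value rests on 26 counts in the shallowest library. In 30 groups tested this way, chance alone gives about 1 in 20.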

How the results depend on the processing

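The differences of the 10 genes in the 3 comparisons (30 results) were recomputed under 36 alternatives, and 1044 of 1080 values kept their direction and their side of the threshold. *Cidea*, *Cidec*, and *Plin4* with both drugs and *Plin2* with OCA passed in all 36, with the highest adjusted p at 0.022 (*Plin2*). In 13 values a difference passed that had not (*Cideb*, *Plin2*, and *G0s2* with INT-787), and in 1, *Plin3* with INT-787 under upper-quartile scaling, it no longer passed. The other 22 changed sign, in 3 differences near 0 that passed under no alternative. With a mouse left out, *Cidea* between the drugs ranged from −0.41 (without INT-787 replicate 4) to 0.23 and changed sign in 6 of 28, *Cidec* between the drugs from −0.093 to 0.14 (7 of 28), and *Plin5* with OCA from −0.056 to 0.049 (6 of 28). *Cidec* between the drugs was also −0.020 with upper-quartile scaling, and with the replicate block *Cidea* between the drugs was −0.023 and *Plin5* with OCA 0.025.

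Leaving out each mouse in turn, the genes that passed ranged from 2116 to 2733 for INT-787 against vehicle, from 666 to 936 for OCA against vehicle, and from 443 to 888 between the drugs, where 443 was the count without OCA replicate 8. Among the 10 genes 4 to 6, 4, and 0 passed. Pairs of genes with a passing correlation fell from 12 to 3 with upper-quartile scaling and to 1, 0, and 0 within vehicle, OCA, and INT-787 mice alone. With RPKM by the longest transcript, 4 places in the order of levels changed (*G0s2* with *Cidec* in vehicle mice and *Plin4* with *Abhd5* in INT-787 mice). The cause of these changes was not tested.

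Replicate numbers were shared by groups, but no label says that a number marks a shared litter or day. Same-numbered mice had a median correlation of deviations of 0.0731 (11 of 27 pairs over 0.1), against 0.00112 for mice of different number (49 of 234 pairs over 0.1), and 9 of 27 mice matched their own number best, a hint from the data that did not reach the bar for pairing (every pair over 0.1). With the replicate block, 2417, 868, and 677 genes passed for INT-787, for OCA, and between the drugs, and 5, 4, and 0 of the 10 genes. *Cideb* with INT-787 passed only with the block, with limma-voom, or without vehicle replicate 10. In the shallowest library, vehicle replicate 6, the lowest of the 10 genes was *Abhd5*, with 26 counts.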
